A study of Mus musculus with 74 samples.

Results

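The 500 strongest BCL6 peaks were the genomic sites with the highest peak scores in a BCL6 chromatin immunoprecipitation (ChIP-seq) from mouse quadriceps muscle. Peaks of the deposited annotated list were ranked by score with ties kept, which gave 501 of 10925 peaks at scores of 116.4 or more. Their 500 peaks with a gene name were nearest to 485 genes, of which 483 were found in the expression tables. The ChIP came from 1 library of untreated wild-type muscle, made with an in-house guinea-pig monoclonal anti-Bcl6 antibody, so the scores have no replicate error.

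The peaks were followed into other libraries of C57BL/6 quadriceps. Steady-state RNA came from 5 knockout mice (AEC-Esr Cre (+):Bcl6 fl/fl, given tamoxifen), set against 4 Cre-negative mice (Bcl6 fl/fl, tamoxifen) and 4 oil mice (Cre (+), Bcl6 fl/fl, oil). Both controls carried the floxed allele. RiboTag libraries, of ribosome footprints and of polyA RNA, came from 4 knockouts (AEC-Esr Cre (+):Bcl6 fl/fl; RiboTag (+), tamoxifen) and 4 controls (AEC-Esr Cre (+); RiboTag (+), tamoxifen). These controls listed no floxed Bcl6. The labels name an anti-HA antibody for the polyA RNA as well, and whether it is RNA of tagged ribosomes or of whole muscle could not be settled. Nascent RNA came from 5 wild-type mice given FX1, a BCL6 inhibitor, and 5 given DMSO. Acetylation of histone H3 at lysine 27 (H3K27ac) was measured in 3 knockouts and 3 Cre-negative mice in each of 3 tables, headed acute (1 week), chronic (12 weeks) and a table of windows at BCL6 peaks. The window table used knockouts mKO_1896, mKO_1900 and mKO_1907 and Cre-negative mice Ctr_1898, Ctr_1899 and Ctr_1906, numbers that also occur in the RNA libraries. The labels gave neither the promoter behind the Cre driver nor the ages, and all samples were whole muscle or immunoprecipitates of it. In such bulk samples fewer cells of a type and less RNA per cell cannot be told apart.

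BCL6 is a zinc-finger repressor that recruits corepressors and histone deacetylases to DNA. Its zinc fingers bind a sequence that resembles the sites of STAT5, the factor through which growth hormone acts, and SOCS2 and CISH are feedback inhibitors of that signalling. H3K27ac marks active promoters and enhancers and is removed by the deacetylases that such corepressors carry. FX1 occupies the corepressor groove of the BCL6 BTB domain.

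Library depth, in units of 1000 tags, was 6704 to 7624 for RNA and 13947 to 32671 for nascent RNA. Counts in genes were 3248807 to 4370468 for footprints and 6499561 to 13045854 for RiboTag mRNA. The H3K27ac libraries held 11772723 to 20773905 tags (acute), 7794885 to 23016334 (chronic) and 15007526 to 22722409 (windows). Bcl6 itself had footprints of 99.8, 107.7, 86.8 and 70.7 counts per 1000000 (CPM) in the RiboTag knockouts, against 187.5, 211.2, 118.6 and 257.4 CPM in their controls (log2 change -1.12, edgeR quasi-likelihood adjusted p = 0.00201). Its whole-gene RNA change, on a log2 scale whose transform is not named, was -0.23 against Cre-negative (limma adjusted p = 0.0134) and -0.31 against oil (limma adjusted p = 0.00264), and the first was not called after quantile normalization (limma adjusted p = 0.0688).

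The strongest peak lay 49 bases upstream of the Socs2 start, at chr10:95416796-95417016 of mm10, with a score of 1204.2. Peaks at Psmc6 (score 801.2), a proteasome ATPase subunit, and Cish (715.4) followed, 170 bases upstream and 25 bases downstream of the starts. Next were an intronic peak 47759 bases into Usp46 (657.8), which encodes a deubiquitinase, and peaks at Gm29684 (628.4), Tnc (606.4) and Arid3b (606.4). Bcl6 itself held the next peak, in its 5′ untranslated region 263 bases from the start (592.9), followed by Snx14 (561.1) and Ctr9 (545.1). The 501 peaks had a median score of 167.8, against 23.3 for the other peaks, and each spanned 220 bases. At the limit of the ranking 9 peaks scored 116.4 and the 10 just outside scored 115.2.

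The share of peaks at promoters went with peak strength. Promoters held 94 of the 501 peaks (18.8%), against 11.3% of the other peaks. Introns held 239 (47.7%, against 52.8%) and intergenic sequence 142 (28.3%, against 29.9%). By rank, the promoter share was 22% in the 100 strongest peaks and 10.7% in the weakest bin. Within 10 kb of a gene start lay 216 of the 501 (43.1%, against 38.4%). Another BCL6 peak lay within 10 kb of 112 of them (22.4%), against 29.6% of the other peaks. Repeats held 46 (9.18%, against 12.05%), and 1 peak was on the mitochondrial chromosome.

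Sequence was at hand only where a peak overlapped a RefSeq promoter window (250 bases before to 50 after a start, GRCm38.p6, which is mm10). That held for 52 of the 501 peaks, with at least 110 bases covered. The STAT-type palindrome TTCNNNGAA, searched on both strands, occurred in the windows of 15 of these 52 (28.8%), against 104 of 534 windows at other BCL6 peaks (19.5%) and 8.33% of all 32544 promoter windows. Its form TTCCTAGAA was found in 5 of the 52 (9.62%), against 2.43% and 0.415%, and TTCCAGGAA in 6 (11.5%), against 5.24% and 0.811%. Both forms are contained in the TTCNNNGAA count. The windows at the strongest peaks were richer in G and C, 59.8% against 58.3% at other peaks and 53.0% in all promoters, and the motif shares were not matched for that. Of the other motifs searched, CTCF had the same order, at 7.69%, 4.87% and 3.45%. The E-box CANNTG was in 63.5% at both kinds of peak and in 72.3% of all promoters, the GC box GGGCGG in 57.7%, 59.4% and 35.9%, and the TEAD motif GGAATG in 23.1%, 13.7% and 14.6%. The AP-1 motif TGANTCA (3.85%, 3.93% and 7.79%) and the glucocorticoid receptor motif ACANNNTGT (1.92%, 5.43% and 6.83%) were less frequent at peaks than in all promoters. MEF2 motifs were present in 3.85%, 5.62% and 3.70%, and the ERR motif TCAAGGTCA in 0%, 0.375% and 0.412%. The NFI motif was found at neither kind of peak and in 0.0369% of all promoters. These are shares of 52, 534 and 32544 windows, so 1 of the strongest windows is worth 1.92 percentage points.

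Inside the covered part of the peak itself, 13 of the 52 (25%) had the palindrome, a median of 16 bases from the peak centre and 8 of them within 20 bases. The middle bases were CTA in 4 of the 13 and CTG in 4. The Cish peak shows the densest case and is printed with its 2 palindromes in capitals (chr9:107296574-107296708, plus strand), 21 and 10 bases before the centre.

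Cish: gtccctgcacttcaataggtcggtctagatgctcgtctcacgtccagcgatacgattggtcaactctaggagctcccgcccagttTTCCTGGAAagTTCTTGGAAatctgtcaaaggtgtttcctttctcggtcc

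The Igfals peak is shown because acetylation there was called in all 3 H3K27ac tables. It lies at chr17:24878059-24878279 (minus strand, in the promoter window of the neighbouring Gm41549), with its palindrome 8 bases from the centre, in capitals.

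Igfals: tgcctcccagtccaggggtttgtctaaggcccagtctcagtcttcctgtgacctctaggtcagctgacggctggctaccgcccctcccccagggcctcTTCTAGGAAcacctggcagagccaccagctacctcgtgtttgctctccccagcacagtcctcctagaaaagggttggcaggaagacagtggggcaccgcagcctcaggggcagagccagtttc

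From the other 11 peaks with a palindrome, 8 sites chosen after values were seen are printed as 41 bases around it, in capitals, to compare the flanks. Their coordinates are chr3:122924262-122924302 (plus strand) for the promoter window of 1810037I17Rik, chr5:74531878-74531918 (minus) for Scfd2, chr10:105841459-105841499 (minus) for Mettl25 and chr3:122245650-122245690 (minus) for Gm46822. The next are chr13:67269176-67269216 (minus) for Zfp458, chr10:30600781-30600821 (minus) for Trmt11, chr2:158794571-158794611 (plus) for Dhx35 and chr12:86360923-86360963 (plus) for Esrrb. The peak ranks were 17, 26, 40, 122, 217, 141, 433 and 460 in that order. The sites are named by promoter window, and the nearest genes listed for the peaks at Mettl25 and Gm46822 were Ccdc59 and Gclm.
1810037I17Rik: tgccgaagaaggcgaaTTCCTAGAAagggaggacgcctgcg
Scfd2: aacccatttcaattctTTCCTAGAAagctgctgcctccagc
Mettl25: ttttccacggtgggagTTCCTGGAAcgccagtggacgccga
Gm46822: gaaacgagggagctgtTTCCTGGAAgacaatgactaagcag
Zfp458: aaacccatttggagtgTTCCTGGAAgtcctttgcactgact
Trmt11: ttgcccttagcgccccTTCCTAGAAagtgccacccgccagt
Dhx35: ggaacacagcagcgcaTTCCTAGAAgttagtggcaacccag
Esrrb: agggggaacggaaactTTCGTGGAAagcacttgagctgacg

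Among these 8 the palindrome was TTCCTAGAA in 4 and TTCCTGGAA, which is TTCCAGGAA on the opposite strand, in 3. Directly after it 1810037I17Rik, Scfd2, Trmt11 and Esrrb continued with ag, while Mettl25, Gm46822, Zfp458 and Dhx35 did not. The flanks otherwise differed. The strong peaks of Psmc6 and Snx14, ranked 2 and 9, and that of Art5 held no palindrome in the part covered. The covered parts, of 191, 202 and 166 bases, are printed for contrast, at chr14:45329574-45329764 (plus strand), chr9:88438978-88439179 (minus) and chr7:102100314-102100479 (minus).
Psmc6: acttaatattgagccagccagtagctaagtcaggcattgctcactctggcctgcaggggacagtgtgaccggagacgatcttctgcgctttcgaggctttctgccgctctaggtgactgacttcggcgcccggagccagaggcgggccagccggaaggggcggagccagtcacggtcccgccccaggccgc
Snx14: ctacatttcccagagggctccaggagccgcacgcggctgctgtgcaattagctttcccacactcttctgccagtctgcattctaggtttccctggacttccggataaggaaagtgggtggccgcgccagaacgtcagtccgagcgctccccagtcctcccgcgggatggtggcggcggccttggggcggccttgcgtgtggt
Art5: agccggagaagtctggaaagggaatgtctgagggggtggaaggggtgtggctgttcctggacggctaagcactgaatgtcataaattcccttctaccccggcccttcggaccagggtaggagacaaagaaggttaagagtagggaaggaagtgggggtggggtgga

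Acetylation was raised in knockout muscle at many of the strongest sites and lowered at few. In the window table, 217 of 458 tested windows over the 501 peaks were raised (47.4%), against 16.5% of all 9223 windows, all of which lie at BCL6 peaks, and 3 were lowered (0.655%, against 1.42%). Either direction was called in 17.9% of all windows. A window or gene was called at an adjusted p below 0.05, here from limma on log2(signal + 1), and the signal is scaled to 10000000 tags per library. The median log2 change was 0.51 over the members and 0.14 over all windows. After quantile normalization 176 were raised and 7 lowered, with the median over all windows at -0.06 and over the members at 0.30. By peak rank the raised share was 52.7% in the strongest bin, then 49.6%, 44.0%, 35.1%, 23.7%, 15.5% and 10.2% in the weakest.

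The strongest window change was at Usp46, whose window chr5:74020152-74021152 held signals of 38.95, 57.21 and 41.01 in knockouts mKO_1896, mKO_1900 and mKO_1907, against 0.67, 0.91 and 0.95 in Cre-negative mice Ctr_1898, Ctr_1899 and Ctr_1906 (log2 change 4.65 ± 0.30 SE, limma adjusted p = 5e-07). The groups stood far apart, and the Cre-negative mice had almost no signal there. This window passed the filter of 10 tags in at least 3 libraries only through the knockouts, so its entry to the test depended on the high group. At Ctnnbl1, a spliceosome-associated protein gene, the intronic window held 64.3, 96.8 and 65.0 in the knockouts, against 2.67, 6.79 and 3.82 in the Cre-negative mice (3.86). The remaining windows with the highest changes were near Gm14858 (3.59), Tmppe (3.57), Klhl13 (3.54), Ncbp3 (3.49), Kidins220 (3.46) and Mir5626 (3.27). Klhl13 had signals of 15.3, 10.6 and 15.0 in the knockouts, against 0, 0.91 and 0 in the Cre-negative mice, so its fold rests on very few tags. It too passed the filter only through the knockouts.

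The windows at the top 10 peaks moved by different amounts. Socs2 had signals of 321.6, 392.1 and 410.1 in the knockouts, against 199.9, 144.8 and 139.7 in the Cre-negative mice (1.22). At Arid3b, which encodes an AT-rich DNA-binding protein, they were 138.1, 142.2 and 121.5 in the knockouts, against 22.7, 28.5 and 19.6 in the Cre-negative mice (2.47). Tnc, which encodes the matrix protein tenascin C, had 27.7, 30.8 and 33.5 in the knockouts, against 7.33, 7.69 and 8.58 in the Cre-negative mice (1.84). All 3 windows separated the groups without overlap. At Cish the knockouts held 202.4, 256.1 and 252.1 and the Cre-negative mice 237.9, 123.1 and 75.8, groups that overlapped (0.85, limma adjusted p = 0.046). That call was lost without Ctr_1899, Ctr_1906, mKO_1900 or mKO_1907 (limma adjusted p from 0.1343 to 0.1575), after quantile normalization (0.64) and with edgeR on recovered tags (0.58). The second Cish window changed by 0.73 and was not called, but was without Cre-negative mouse Ctr_1898 (1.08) or knockout mKO_1896 (0.85). Bcl6 was already high, with 442.0, 481.0 and 510.6 in the knockouts, against 419.8, 409.6 and 357.7 in the Cre-negative mice (0.27, limma adjusted p = 0.038). It was not called without Ctr_1899, Ctr_1906, mKO_1900 or mKO_1907 (limma adjusted p from 0.0589 to 0.1896), after quantile normalization (0.09) or with edgeR on recovered tags (0.11). Gm29684 (1.39) was raised, and so was Ctr9 (1.12), which lost its call without Ctr_1898, Ctr_1906, mKO_1900 or mKO_1907 (limma adjusted p from 0.0569 to 0.1297), after quantile normalization (0.94) and with edgeR (1.13). The windows of Psmc6 (0.27) and Snx14 (-0.06) were not called. Whether acetylation changes differed with the palindrome was not tested.

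**Figure D1:**
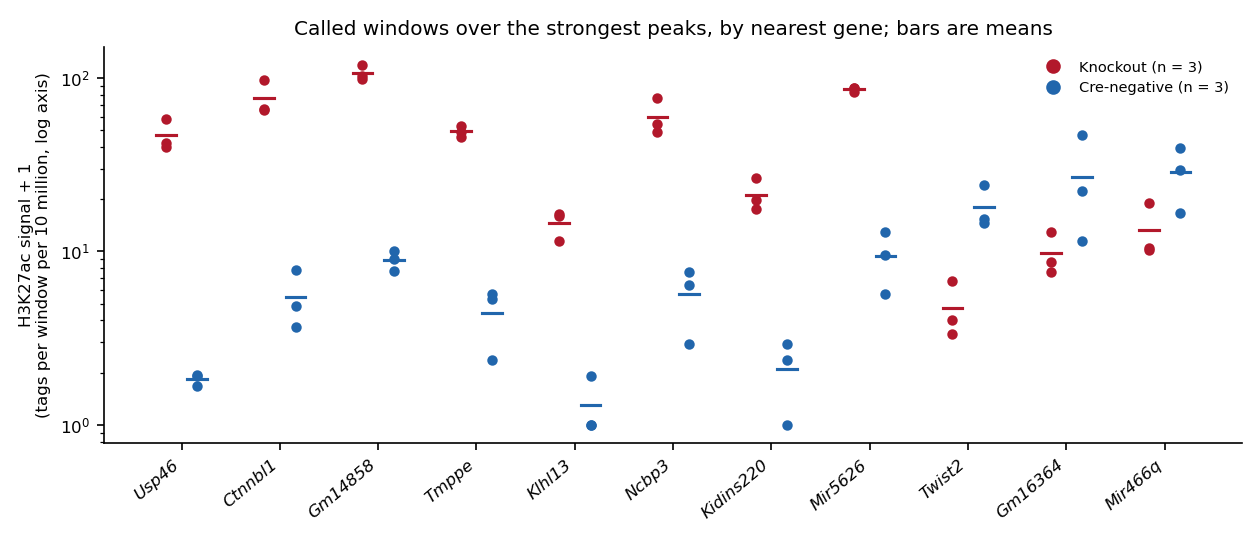
H3K27ac signal plus 1 on a log axis in the windows over named peaks, 1 point per animal, knockouts (n = 3) left of Cre-negative mice (n = 3) at each. At Usp46 the knockouts lie at 38.95 to 57.21 and the Cre-negative mice at 0.67 to 0.95, while Twist2 shows the opposite order.

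Among the member windows the raised share was lower at promoters than at introns or between genes. Of the tested windows at promoter peaks 26 of 94 were raised (27.7%, median change 0.19), against 115 of 220 at introns (52.3%, median 0.68) and 61 of 120 between genes (50.8%, median 0.55). Of all windows 16.5% were raised. That share was not split by class, so the order may not be particular to the strongest peaks. The lowered windows were 3. Near Twist2, which encodes a bHLH repressor, signals were 2.36, 5.72 and 3 in the knockouts, against 23.32, 13.58 and 14.31 in the Cre-negative mice (-1.97, limma adjusted p = 0.0012), without overlap. The call near Gm16364 (-1.27) was lost without Ctr_1898, Ctr_1899, mKO_1896, mKO_1900 or mKO_1907 (limma adjusted p from 0.0574 to 0.1728), and that near Mir466q (-1.09) without Ctr_1898, Ctr_1899, mKO_1896 or mKO_1900 (0.075 to 0.1242).

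The acute and chronic tables, made of regions defined apart from the BCL6 peaks, had 188 regions over 186 of the 501 peaks. Of 184 tested acute regions 9 were raised (4.89%), against 0.108% of all 69417 regions. None was lowered, against 0.00576% of all regions, and 0.114% of all were called in either direction. At an unadjusted p below 0.05 in limma 62 of the 184 were higher and 4 lower, and edgeR on recovered tags called 12 raised and 0 lowered. Of 187 tested chronic regions 15 were raised (8.02%), against 0.169% of all 66198 regions, and none was lowered, against 0.0121%, with 0.181% called either way. At an unadjusted p below 0.05 in limma 72 were higher and 1 lower, and edgeR called 36 raised and 0 lowered. The members' median change was 0.26 acute and 0.33 chronic, against 0.01 and 0.05 over all regions. Of the 9 raised acute regions 6 were also raised in the chronic table. That share was not computed over all raised acute regions, so it does not set the members apart. These counts rested on single libraries. Without knockout imKO_6346 or imKO_6349 the acute count was 3 each time. Without knockout imKO_1794, imKO_1802 or imKO_1803 the chronic count was 1, 0 and 1, while without Cre-negative mouse Ctr_1801 it was 39.

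Usp46 again had the highest acute change, in region chr5:74020285-74020785, with 29.1, 14.1 and 23.1 in knockouts imKO_6346, imKO_6348 and imKO_6349, against 0.85, 0.58 and 0.00 in Cre-negative mice Ctr_6345, Ctr_6366 and Ctr_6371 (3.96, limma adjusted p = 0.0022; 0.2514 and 0.1842 without imKO_6346 or imKO_6349). In the chronic table it held 33.8, 33.7 and 29.1 in knockouts imKO_1794, imKO_1802 and imKO_1803, against 1.49, 2.57 and 0.00 in Cre-negative mice Ctr_1795, Ctr_1801 and Ctr_7362 (3.999; limma adjusted p from 0.1464 to 0.2278 without any 1 knockout). Vps8, which encodes an endosomal tethering subunit, held 105.7, 67.4 and 96.8 acute in the knockouts, against 20.4, 22.01 and 28.1 in the Cre-negative mice (1.88, limma adjusted p = 2.8e-05). In all of these the groups lay apart, but the Usp46 region passed the filter only through the knockouts in both tables. Chronic Vps8 signals were 94.4, 98.7 and 86.7 in the knockouts, against 6.72, 18.0 and 9.12 in the Cre-negative mice (3.05; limma adjusted p = 0.0694 without knockout imKO_1802). The chronic Ctnnbl1 region held 43.1, 30.3 and 47.4 in the knockouts, against 0.00, 1.28 and 2.61 in the Cre-negative mice (4.33; limma adjusted p from 0.1113 to 0.1213 without any 1 knockout). That region also passed the filter only through the knockouts. Igfals, the acid-labile subunit that carries IGF in blood, had smaller changes of 0.88 (acute) and 1.08 (chronic). The acute call was lost with each single library left out, at limma adjusted p from 0.0916 to 0.2326, and the chronic one without Ctr_1795, Ctr_7362 or any knockout, at 0.0664 to 0.4586. Acute calls near Arid3b (1.59) and Vps53 (1.36) were lost without knockout imKO_6346 or imKO_6349, at 0.0691 to 0.1599, and that of Vps53 also without Cre-negative mouse Ctr_6366 (0.0845).

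**Figure D2:**
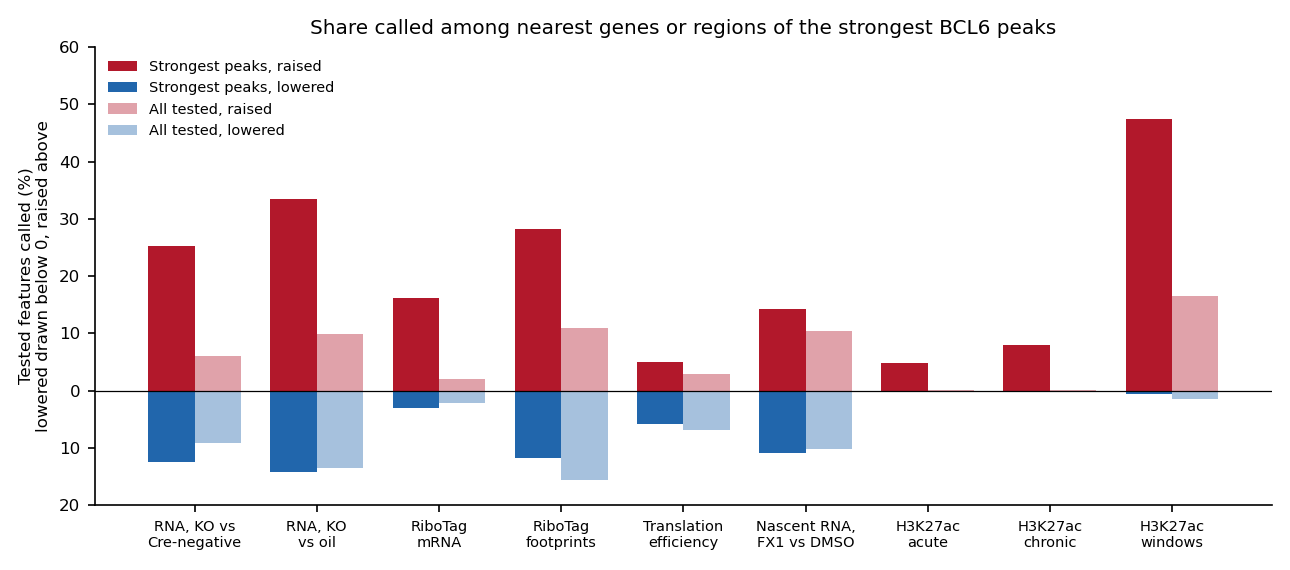
Share of features called raised or lowered (percent) in each of the 9 comparisons, for the nearest genes or regions of the 500 strongest peaks and for all features tested. The raised share of the members is above that of all features in every comparison, for example 47.4% against 16.5% of windows and 16.1% against 1.95% of RiboTag mRNAs.

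Among the nearest genes the share with raised RNA was several times that of all genes. Against Cre-negative mice 97 of 383 tested members were raised (25.3%, against 6.04% of all 13732 genes) and 48 lowered (12.5%, against 9.22%), with 15.3% of all genes called. Against oil mice 129 of 385 were raised (33.5%, against 9.89% of all 13754 genes) and 55 lowered (14.29%, against 13.5%), with 23.4% of all called. In the oil comparison erythroid markers, 5 of 5 tested raised, summed to 674 to 709 in the knockouts, against 617 to 653 in the oil mice. Schwann cell markers, 3 of 7 raised, summed to 2351 to 2528 in the knockouts, against 2243 to 2346 in the oil mice. Muscle fibre markers, 1 of 10 raised and 3 lowered, summed to 83680 to 90420 in the knockouts, against 92504 to 96134 in the oil mice. None of these sums overlapped, and their part in the calls against oil was not tested. Both comparisons share the same 5 knockouts, so they are not independent. The median change of the members was 0.02 and 0.04, against 0.00 in both for all genes, so the typical member stood near its controls. Raised calls separated the groups without overlap in 84 of 97 against Cre-negative and 112 of 129 against oil. The same share was not computed over all raised genes, so these counts do not set the members apart.

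The RiboTag mRNA, from other animals, gave 64 of 397 members raised (16.1%, against 1.95% of all 14476 genes) and 12 lowered (3.02%, against 2.25%), with 4.21% of all genes called. Genes nearest to the other peaks were raised in 121 of 4623 (2.62%) and lowered in 180 (3.89%). In RNA against Cre-negative mice those other genes were raised in 338 of 4454 (7.59%) and lowered in 685 (15.4%). Of the 63 raised RiboTag members that were tested in RNA 50 were raised against Cre-negative mice (79.4%), and 50 of 97 the other way round (51.5%). Over all genes the shares were 175 of 260 (67.3%) and 175 of 824 (21.2%). Fos and Tnc were the 2 members called in opposite directions.

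By peak rank, the raised share in RiboTag mRNA was 24.7% in the strongest bin, then 13.5%, 15.3%, 7.36%, 4.79%, 3.51% and 2.94%. In RNA against Cre-negative mice it was 36.4%, 27.9%, 20%, 18.5%, 11.5%, 8.34% and 7.73%. Members with a peak within 10 kb of the gene start had higher raised shares than those with a peak farther away in the knockout comparisons. The shares were 31.6% against 19.9% in RNA against Cre-negative mice, 41.2% against 26.6% against oil and 38.1% against 20.1% in footprints. In nascent RNA the order was reversed, at 10.2% against 17.9%. These differences were not tested, and the set within 1 kb is part of that within 10 kb. A gene with peaks at both distances counts in the near and in the far set. Within 1 kb 17 of 103 members were raised and 1 lowered in RiboTag mRNA (16.5% raised), and within 10 kb 37 of 194 (19.1%) and 4. Among members with a peak farther away than that, 29 of 208 were raised (13.9%) and 8 lowered. Among the member peaks, windows and genes went together in part. Where the window was raised, the nearest gene was raised in RiboTag mRNA in 60 of 184 (32.6%), and where it was not called, in 8 of 197 (4.06%). A gene with several peaks counts at each of them. These shares were not computed over all windows, so they do not set the members apart.

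**Figure D3:**
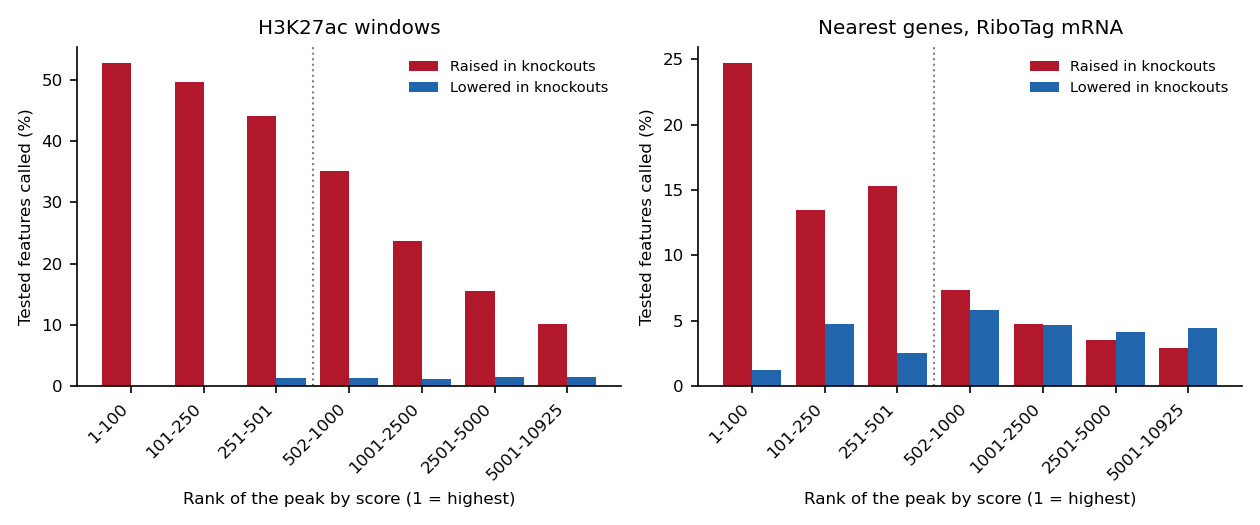
Share of windows (H3K27ac) and of nearest genes (RiboTag mRNA) called raised, in percent, by bins of BCL6 peak rank from strongest to weakest. Both shares are highest in the strongest bin, 52.7% and 24.7%, and lowest in the weakest, 10.2% and 2.94%.

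Among the genes of the top 10 peaks, Usp46 had the largest change in RNA and in RiboTag mRNA. Its RiboTag mRNA was 139.6, 140.2, 106.8 and 133.6 CPM in knockouts RNA_11688, RNA_11718, RNA_11721 and RNA_11722, against 29.2, 28.4, 24.8 and 28.4 CPM in controls RNA_11673, RNA_11734, RNA_11735 and RNA_11745 (log2 change 2.23 ± 0.11 SE, edgeR adjusted p = 6.33e-07). In RNA its log2 level was 9.72, 9.70, 9.85, 9.83 and 9.82 in knockouts P1895, P1896, P1900, P1907 and P1911, against 8.84, 8.96, 8.94 and 8.84 in Cre-negative mice P1898, P1899, P1906 and P1909 (0.89, limma adjusted p = 1.08e-08). The lowest knockout was above the highest control in both. Against oil the change was 1.136. The size of a change on this log2 scale, whose transform is not named, may not be set against that of CPM.

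Socs2 rose in the same comparisons. It had 86.7, 102.5, 89.6 and 101.6 CPM in the RiboTag knockouts, against 33.9, 20.8, 42.6 and 19.2 CPM in the controls (1.69 ± 0.21 SE, edgeR adjusted p = 0.00081). The controls varied more than the knockouts but did not reach them. RNA log2 levels were 8.85, 8.88, 9.12, 8.88 and 8.92 in the knockouts, against 8.36, 8.75, 8.68 and 8.48 in the Cre-negative mice (0.36, limma adjusted p = 0.00388), and the change against oil was 0.71. Arid3b had 32.2, 38.6, 24.3 and 39.6 CPM in the RiboTag knockouts, against 12.9, 15.9, 10.4 and 10.9 CPM in the controls (1.43, edgeR adjusted p = 0.00081), with RNA changes of 0.78 against Cre-negative and 0.91 against oil.

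Cish, the other STAT5 feedback inhibitor with a top-10 peak, was called in the opposite direction to Socs2 in RNA. Its RNA log2 level was 9.26, 8.83, 9.16, 8.96 and 9.14 in the knockouts, against 9.26, 9.69, 9.49 and 9.52 in the Cre-negative mice (-0.42 ± 0.088 SE, limma adjusted p = 0.00573), with the lowest control level with the highest knockout. Against oil it changed by -0.08, not called, but by -0.39 without oil mouse P1905 (limma adjusted p = 0.0283). RiboTag mRNA was 44.7, 66.4, 59.1 and 75.8 CPM in the knockouts, against 90.2, 30.8, 155.8 and 7.02 CPM in the controls, whose spread enclosed every knockout (-0.22, edgeR adjusted p = 0.896).

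Tnc gave opposite calls in the 2 kinds of library. It had 101.4, 131.3, 140.2 and 136.0 CPM in the RiboTag knockouts, against 75.5, 73.5, 86.9 and 75.01 CPM in the controls (0.71, edgeR adjusted p = 0.0034). In RNA it was -0.21 against Cre-negative mice (limma adjusted p = 0.0153), lost without Cre-negative mouse P1906 (limma adjusted p = 0.0521), and -0.18 against oil, called only without oil mouse P1897 (-0.26, limma adjusted p = 0.0043). Bcl6 RiboTag mRNA, unlike its footprints, was 273.8, 248.3, 184.2 and 209.9 CPM in the knockouts, within the 131.6, 317.9, 125.3 and 260.3 CPM of the controls (edgeR adjusted p = 0.840). Psmc6 and Ctr9 were called in neither RNA against Cre-negative (-0.03 and 0.02) nor RiboTag mRNA (-0.06 and 0.19). Snx14, a sorting nexin, was raised by 0.11 in RNA against Cre-negative mice (limma adjusted p = 0.0298), a call lost without P1898, P1899, P1906, P1896, P1907 or P1911 (limma adjusted p from 0.0542 to 0.0879).

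The largest RiboTag changes were farther down the ranking. Chrna9, an acetylcholine receptor subunit with a peak at position -1074 relative to its start and rank 118, had 54.6, 24.5, 25.8 and 23.6 CPM in the knockouts, against 0.649, 1.12, 0.291 and 0.167 CPM in the controls (5.73 ± 0.43 SE, edgeR adjusted p = 1.83e-05). Spns3, a sphingolipid transporter family member at rank 494, had 36.8, 27.1, 51.0 and 43.1 CPM in the knockouts, against 1.21, 0.710, 0.776 and 1.00 CPM in the controls (5.41 ± 0.26 SE, edgeR adjusted p = 6.33e-07). The control values of both are near the counting limit, so the folds depend on very few counts. RNA of Chrna9 was at log2 levels of 9.001, 8.94, 8.91, 8.74 and 8.93 in the knockouts, against 7.26, 7.37, 7.13 and 7.24 in the Cre-negative mice (1.65, limma adjusted p = 1.22e-09), and 1.95 higher than in oil mice. Its window held 132.8, 180.0 and 132.5 in the knockouts, against 30.0, 27.6 and 20.03 in the Cre-negative mice (2.48). That of Spns3 held 19.5, 40.1 and 31.0 in the knockouts, against 6.00, 2.26 and 3.82 in the Cre-negative mice (2.65).

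Several genes of growth signalling were among the members. Akt1, the kinase of the insulin and IGF pathway with a peak 3140 bases inside the gene at rank 57, had 427.1, 463.2, 483.3 and 390.5 CPM in the RiboTag knockouts, against 159.3, 152.8, 162.0 and 152.9 CPM in the controls (1.49 ± 0.090 SE, edgeR adjusted p = 3.89e-06). Its RNA log2 levels were 10.51, 10.47, 10.54, 10.52 and 10.56 in the knockouts, against 9.78, 9.92, 9.88 and 9.88 in the Cre-negative mice (0.65, limma adjusted p = 1.69e-08), and its window held 99.1, 101.7 and 132.5 in the knockouts, against 27.3, 24.4 and 20.03 in the Cre-negative mice (2.17). Eif4ebp1, the translation inhibitor that mTORC1 phosphorylates, had 125.2, 127.8, 140.2 and 108.0 CPM in the knockouts, against 56.5, 49.1, 49.5 and 56.3 CPM in the controls (1.25, edgeR adjusted p = 3.51e-05). Knockouts and controls did not overlap in any of these. Igfals had 42.2, 52.4, 60.5 and 48.2 CPM in the knockouts, against 11.3, 13.5, 20.1 and 16.4 CPM in the controls (1.74, edgeR adjusted p = 0.00019).

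Of the insulin, IGF and mTORC1 list, 6 genes were members: Pik3ca, Akt1, Ddit4, Sesn1, Eif4ebp1 and Eif4e. Of these 4 were raised and none lowered in RNA against Cre-negative mice, RNA against oil and RiboTag mRNA, among them Sesn1, a stress-induced mTORC1 inhibitor (0.25, 0.34 and 1.24), and Pik3ca, a catalytic subunit of phosphoinositide 3-kinase (0.17, 0.26 and 0.59). The pathway's whole list gave 7 raised and 8 lowered of 37 genes against Cre-negative mice. The raised set thus held an activating kinase and inhibitors of the pathway side by side. Mstn, the secreted brake on muscle growth, was also raised, with 245.6, 217.4, 158.1 and 213.4 CPM in the RiboTag knockouts, against 118.0, 128.1, 139.3 and 112.9 CPM in the controls (0.74, edgeR adjusted p = 0.0046), and by 0.49 and 0.50 in RNA against Cre-negative and oil mice. Its window was not called (0.25).

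**Figure D4:**
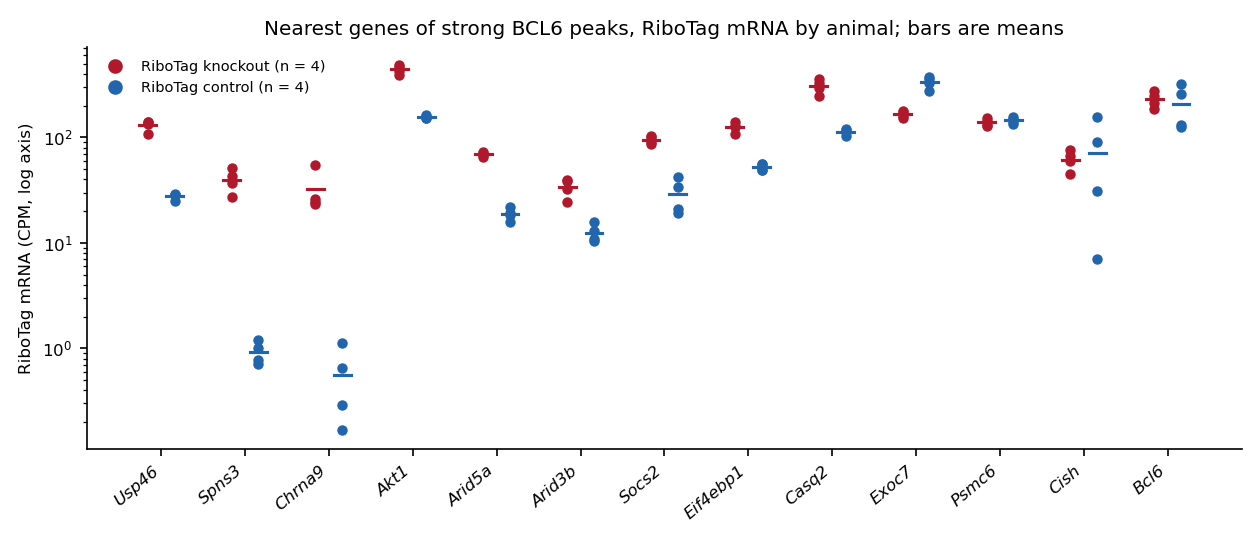
RiboTag mRNA of 13 nearest genes in CPM, 1 point per animal, knockouts (n = 4) left of controls (n = 4). Usp46, Socs2, Akt1 and Chrna9 separate the groups, while the Cish controls, at 7.02 to 155.8, enclose the knockouts.

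Other raised members had roles in metabolism, calcium storage and signalling. Casq2, the cardiac and slow-muscle calsequestrin that stores calcium, had 247.6, 329.4, 354.9 and 295.1 CPM in the RiboTag knockouts, against 103.5, 119.4, 118.8 and 112.4 CPM in the controls (1.44, edgeR adjusted p = 2.7e-05). Arid5a, an AT-rich binding protein, had 65.3, 68.6, 72.3 and 71.4 CPM in the knockouts, against 19.2, 15.6, 22.03 and 18.2 CPM in the controls (1.89, edgeR adjusted p = 3.89e-06). Meg3, a long non-coding RNA, had 1173, 721.2, 1048 and 1260 CPM in the knockouts, against 288.6, 155.8, 244.8 and 266.6 CPM in the controls (2.14). All 3 were raised in RNA as well, by 0.42, 0.64 and 0.82 against Cre-negative mice. Idh2, the mitochondrial isocitrate dehydrogenase with 2 of the peaks, was raised by 0.87 in RiboTag mRNA and by 0.46 and 0.53 in RNA against Cre-negative and oil mice. Wnt4, a secreted signalling ligand, was raised by 1.16, 0.91 and 0.81 in the same order. Esrrb, an orphan nuclear receptor whose promoter sequence is printed above, was raised by 0.84, 0.63 and 0.67, the first lost without RNA_11673, RNA_11734, RNA_11735, RNA_11718, RNA_11721 or RNA_11722 (edgeR adjusted p from 0.058 to 0.125).

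Lowered members were fewer. Exoc7, an exocyst subunit, had 175.8, 178.0, 158.2 and 152.9 CPM in the RiboTag knockouts, against 273.1, 371.2, 355.0 and 329.4 CPM in the controls (-0.996, edgeR adjusted p = 0.00023), and fell by 0.45 and 0.42 in RNA against Cre-negative and oil mice, with no change called at its window (0.04). Enho, which encodes the secreted peptide adropin, was lowered by 1.24 in RiboTag mRNA. Lifr, the receptor of leukaemia inhibitory factor, was lowered by 0.62 there and by 0.22 and 0.27 in the RNA comparisons. Adamtsl4 (-0.72), Lrig1 (-0.57) and Rbfox1 (-0.55) were lowered too. In RNA, Zbtb16, a zinc-finger relative of BCL6, was lowered by 0.41 and 0.61, Mylk4, a muscle kinase, by 0.38 and 0.37, and the cytoskeletal linker Flnc by 0.31 and 0.32. Their RiboTag mRNA changes (-0.98, -0.27 and 0.02) were not called, but that of Zbtb16 was without control RNA_11673 (-1.17, edgeR adjusted p = 0.0212) or knockout RNA_11718 (-1.19, edgeR adjusted p = 0.0443).

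Other gene lists held few members, and the calls among them went in both directions. Bcl6 and its corepressors contributed Bcl6, Ncor1 and Zbtb16, all 3 lowered in both RNA comparisons, where the whole list had 1 raised and 6 lowered of 22 against Cre-negative mice. Ncor1, with changes of -0.15 and -0.27, lost its first call after quantile normalization (limma adjusted p = 0.1895). The clock genes Per1, Cry1 and Nr1d1 changed by 0.01, -0.08 and 0.09 and none was called, with 1 of the 19 genes of the list lowered and none raised. In the sarcomere list Casq2 was raised and Mylk4, Mylpf and Ttn were lowered, Myh7 not called (0.22), while 8 were raised and 18 lowered in all 52. Mylpf (-0.12) and Ttn (-0.22) were not called after quantile normalization (limma adjusted p = 0.2438 and 1.0). Levels of the muscle fibre markers moved the same way, with a sum of 82477 to 89141 in the knockouts, against 89640 to 94787 in the Cre-negative mice. Their part in these calls was not tested.

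The remaining lists behaved in the same mixed way in RNA against Cre-negative mice. Of the cytokine feedback list Socs2 was raised, Cish and Lifr lowered and Ptpn1 not called, in a list with 1 raised and 10 lowered of 28. Of the atrophy list Mstn was raised, and the FoxO factor Foxo3 (-0.03) and Klf15 (0.10) were not called. Of the 3 members in the glycolysis list, whose 38 genes gave 4 raised and 16 lowered, the kinase and phosphatase gene Pfkfb4 was raised (0.29) and the enolase gene Eno1, which has a near-identical copy in the genome, was lowered (-0.091). The Eno1 call was lost without Cre-negative mouse P1898, P1899 or P1909 or any 1 knockout (limma adjusted p from 0.0528 to 0.1202) and after quantile normalization (limma adjusted p = 0.0514). Against oil Pfkfb4 was raised (0.28), and Eno1 (-0.11) and Pdk4, a kinase that inhibits pyruvate dehydrogenase (-0.40), were lowered, Pdk4 losing its call without oil mouse P1904 or P1910 (limma adjusted p = 0.0593 and 0.0517) and after quantile normalization (limma adjusted p = 0.0856). Among the immediate early genes Fos was lowered in RNA (-0.36) but had 116.8, 50.03, 59.7 and 98.1 CPM in the RiboTag knockouts, against 16.3, 16.8, 16.5 and 8.69 CPM in the controls (2.45, edgeR adjusted p = 0.0004). In that library 7 genes of the list of 29 were raised and none lowered, and Klf4 and Btg2 were not called.

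**Figure D5:**
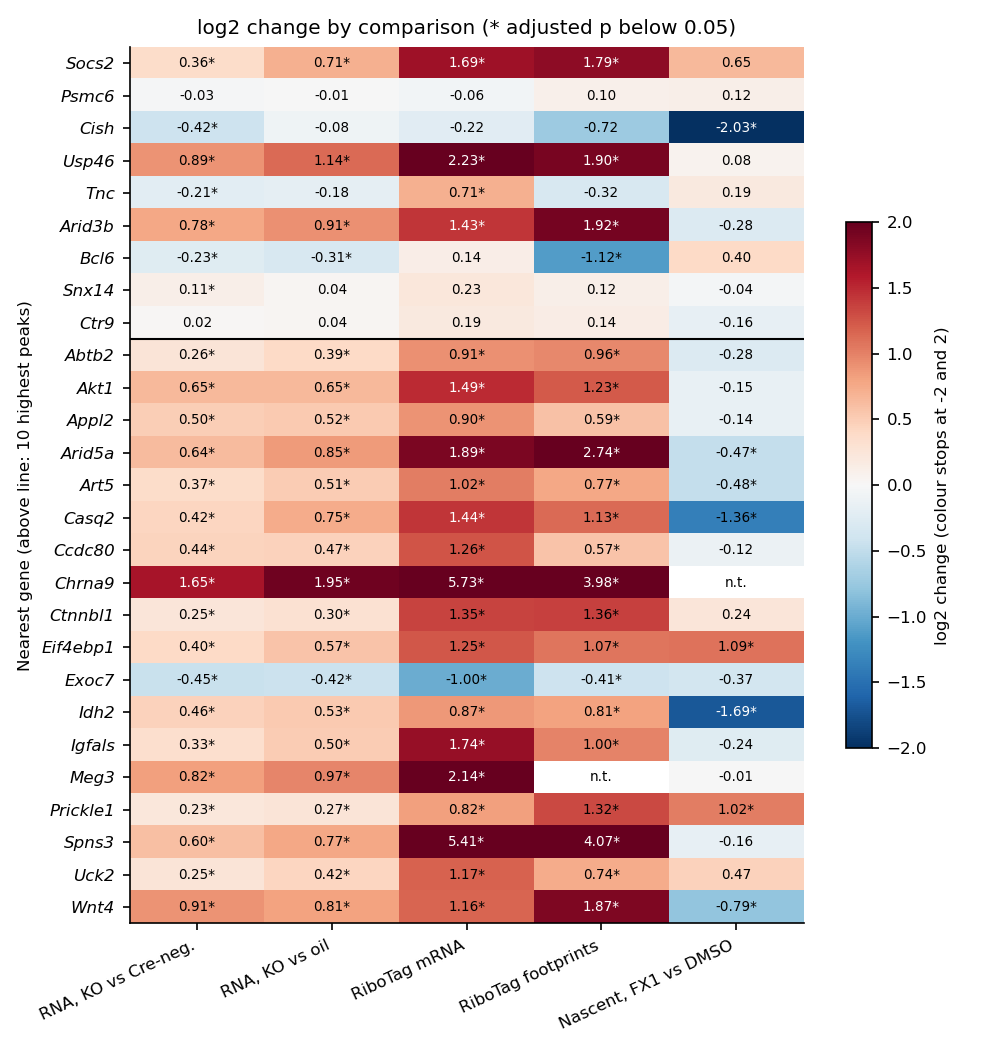
Log2 change of named nearest genes (rows) in 5 comparisons (columns), with the colour scale ending at 2 on either side. An asterisk marks adjusted p below 0.05, and n.t. marks a gene that was not tested. Usp46, Socs2 and Arid3b are raised in the knockout columns, while Cish is below 0 in all 5 columns. Casq2, Wnt4 and Arid5a are raised in the knockout columns and lowered in the FX1 column.

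Ribosome footprints of the members were raised in 106 of 375 (28.3%, against 10.9% of all 12979 genes) and lowered in 44 (11.7%, against 15.7%), with 26.6% of all genes called. Footprint and mRNA libraries share the same 8 animals. Usp46 had 73.0, 72.4, 65.8 and 73.5 CPM in the knockouts, against 18.2, 17.7, 17.2 and 21.5 CPM in the controls (1.90, edgeR adjusted p = 1.44e-06). Akt1 had 156.9, 170.3, 129.6 and 152.1 CPM in the knockouts, against 73.8, 74.0, 57.9 and 46.5 CPM in the controls (1.23). Both separated the groups, as did the transcripts with the lowest control footprints. Arid5a had 69.3, 59.2, 67.8 and 66.4 CPM in the knockouts, against 11.4, 5.19, 8.20 and 13.7 CPM in the controls (2.74). Chrna9 had 123.6, 63.8, 56.3 and 61.8 CPM in the knockouts, against 3.42, 3.30, 4.10 and 8.14 CPM in the controls (3.98), and Spns3 94.0, 62.0, 87.9 and 79.3 CPM in the knockouts, against 5.24, 3.77, 4.10 and 5.52 CPM in the controls (4.07).

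Footprints of Socs2 (1.79), Arid3b (1.92), Wnt4 (1.87), Fos (1.87), Casq2 (1.13), Eif4ebp1 (1.07) and Igfals (1.00) were raised as well. Those of Mstn were raised by 0.40, which was not called without knockout RPF_11688 or control RPF_11734 (edgeR adjusted p = 0.0641 and 0.0502). Cish footprints changed by -0.72, not called, and by -1.03 without control RPF_11745 (edgeR adjusted p = 0.0251). Tnc changed by -0.32, not called, and by -0.64 without knockout RPF_11718 (edgeR adjusted p = 0.0026). The members with the lowest footprint changes were Nnat (-1.78), Col6a6 (-1.54), Abca8a (-1.50), Crispld2 (-1.50), Enho (-1.38), Jade2 (-1.37) and Lpcat2 (-1.34). Col6a6 encodes a collagen chain and Abca8a a membrane transporter.

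Markers of other cells moved with the footprint groups. Fibroblast markers, 10 of 10 lowered, summed to 2076 to 3538 CPM in the knockouts, against 3609 to 5578 CPM in the controls. Macrophage markers, 10 of 10 lowered, summed to 379 to 859 CPM in the knockouts, against 1091 to 1489 CPM in the controls. Of the endothelial markers 9 of 10 were lowered, at sums of 161 to 417 CPM in the knockouts, against 455 to 817 CPM in the controls. Sums of smooth muscle, satellite cell and adipocyte markers were also lower without overlap. None of these markers was near 0 in every library, and their part in the lowered footprints was not tested.

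Translation efficiency, the footprint change beyond the mRNA change in a model over all 16 RiboTag libraries, gave 20 of 399 members raised (5.01%, against 2.93% of all 14935 genes) and 23 lowered (5.76%, against 6.98%), with 9.91% of all genes called. These shares lay near the background. Bcl6 was lowered (-1.22, edgeR adjusted p = 0.041) and so was Tnc (-0.99, edgeR adjusted p = 0.025), while Exoc7 was raised by 0.63. Markers of other cells were lowered in translation efficiency too, in 9 of 10 of the endothelial list (median -1.56), 6 of 10 of fibroblasts (-0.95), 6 of 8 of tendon (-1.21), 5 of 8 of smooth muscle (-1.14) and 3 of 10 of macrophages (-1.20), with none raised, and their part in the lowered calls was not tested. Bcl6 lost its call without the animals of RPF_11673, RPF_11688, RPF_11721, RPF_11722 or RPF_11745, at edgeR adjusted p from 0.0524 to 0.1083, and Tnc without those of RPF_11673, RPF_11721, RPF_11722, RPF_11734 or RPF_11735, at 0.0549 to 0.1102. Without the control animal of RPF_11734, 6 members were called. The highest changes were at Wdr72 (3.19), Zfp142 (0.98) and Arid5a (0.90) and the lowest at Epb41l4aos (-2.81), Abca8a (-1.54), Col6a6 (-1.49) and Spns3 (-1.27), each of which lost its call on leaving out at least 1 animal, at edgeR adjusted p from 0.0504 to 0.1578.

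FX1 was given to wild-type muscle, so this comparison asks about BCL6 inhibition without deletion. Of 420 members tested in nascent RNA 60 were raised (14.29%, against 10.5% of all 15683 genes) and 46 lowered (10.95%, against 10.1%), with 20.6% of all genes called. The shares stood closer to the background than in the knockouts. Genes nearest to other peaks were raised in 631 of 4816 (13.1%) and lowered in 608 (12.6%). Members with a peak within 10 kb were raised in 20 of 196 and lowered in 29, and members with a peak farther away in 41 of 229 and 19. Muscle fibre markers summed to 824527 to 1242620 in the FX1 mice, against 1560920 to 1911700 in the DMSO mice, and their part in these calls was not tested.

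Cish was lowered most clearly of the top-10 genes, at log2 levels of 5.99, 5.72, 5.06, 5.42 and 5.96 in FX1 mice 1 to 5, against 6.604, 7.64, 8.33, 7.68 and 8.05 in DMSO mice 1 to 5 (-2.03 ± 0.29 SE, limma adjusted p = 0.00099). Socs2 was at 7.05, 7.35, 5.69, 7.26 and 7.34 in the FX1 mice, against 6.22, 6.33, 6.39, 6.06 and 6.43 in the DMSO mice. With FX1 mouse 3 its change of 0.65 was not called (limma adjusted p = 0.122), and without that mouse it was 0.96 (limma adjusted p = 0.0002). Without it Bcl6 (0.40 with it) was called at 0.62 (limma adjusted p = 0.0094) and Arid3b (-0.28 with it) at -0.47 (limma adjusted p = 0.0097), and the number of members called was 146. Usp46 (0.08) and Akt1 (-0.15), prominent in the knockouts, were not called, and Chrna9 was not tested.

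The raised members included Ddit4, Per1, Klf15 and Zbtb16 of the glucocorticoid list, and genes outside that list. Ddit4, an inhibitor of mTORC1 with a peak 30241 bases downstream of its start at rank 62, was at 12.28, 11.94, 10.85, 11.19 and 11.39 in the FX1 mice, against 9.21, 9.03, 9.89, 8.4002 and 9.24 in the DMSO mice (2.38, limma adjusted p = 0.00045). Nfkbia, which encodes the inhibitor of NF-kappaB, was at 10.69, 10.35, 9.94, 10.28 and 10.38 in the FX1 mice, against 9.03, 8.73, 9.10, 8.63 and 9.07 in the DMSO mice (1.42). The groups did not overlap in either. Per1 (0.80), Klf15 (0.80), Foxo3 (1.32), Zbtb16 (0.72), Hopx (2.69), Btg2 (2.33), Klf4 (2.06), Pfkfb4 (1.86) and Il6ra (1.62) were raised too. The calls of Per1 and Zbtb16 were lost without any 1 of 5 and of 7 mice, at limma adjusted p of up to 0.0728 and 0.0863. Of the 6 members in the glucocorticoid list 4 were raised and none lowered, in a list with 10 raised of 20. Immediate early genes gave 2 raised of the members and 16 raised and 1 lowered of 28 in the list. Ddit4 was not called in RNA against Cre-negative mice (0.14), but was called without Cre-negative mouse P1898 (0.26, limma adjusted p = 0.0484).

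Some genes raised in the knockouts were lowered in the FX1 mice. Idh2 was at 7.50, 7.19, 7.60, 7.96 and 7.74 in the FX1 mice, against 9.67, 9.20, 8.99, 9.25 and 9.32 in the DMSO mice (-1.69, limma adjusted p = 0.00012). Casq2 (-1.36), Wnt4 (-0.79), Arid5a (-0.47) and Mreg (-1.37) were also lowered. Eif4ebp1 was raised in both, at 10.35, 10.82, 10.80, 9.68 and 9.74 in the FX1 mice, against 9.39, 9.16, 9.37, 8.81 and 9.20 in the DMSO mice (1.09, limma adjusted p = 0.0074). Of the 63 raised RiboTag members tested in nascent RNA 8 were raised (12.7%, against 10.5% of all genes) and 11 lowered (17.5%, against 10.1%). These shares were not computed over all raised RiboTag genes, so they do not set the members apart. The other lowered members with large changes included Tbc1d4, a Rab regulator of glucose uptake (-1.67, limma adjusted p = 5.25e-05), the muscle methyltransferase Smyd1 (-1.61), the Wnt receptor Fzd7 (-1.55) and Nr1d1, a repressor of the clock (-1.32).

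Across the 6 gene comparisons 193 of the 483 members were called in none, 56 of them because they were tested in none. Called in at least 5 were 23 members, and Arid5a and Mreg, which encodes a melanosome and lysosome protein, were called in all 6, Mreg losing its RiboTag mRNA call (0.46) without any 1 of 6 libraries, at edgeR adjusted p of up to 0.0984. Both RNA comparisons share their knockouts, and the RiboTag comparisons share their animals. The same counts were not made over all genes, so they do not set the members apart.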

How the data were processed

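The 501 peaks and the gene lists were chosen with earlier results of these data known. The authors aligned RNA with STAR 2.4.0 and other libraries with Bowtie 1.2 against mm10, and used HOMER and DESeq2 1.14.1, per the submitters' processing notes, which give no role or order for the tools beyond their names. Peak score is 1 value per peak of the deposited list and its scale is not named. RNA and nascent RNA were deposited as log2 values per gene, by a transform the file headers do not name. RiboTag values are deposited raw counts per gene, with at most 5 tags per position per the file headers. H3K27ac values are a deposited signal scaled to 10000000 tags per library, from which whole tags were recovered to filter regions. A region could pass that filter through either group alone.

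Each comparison was fitted over all its features and adjusted by Benjamini-Hochberg within it. Log2 values (mean of at least log2 of 10) and log2(signal + 1) (10 tags in at least 3 libraries) were tested with limma 3.58.1 (trend), and counts (minimum 10) with edgeR 4.0.16 quasi-likelihood after TMM. Translation efficiency is the interaction of genotype and library type over 16 libraries. All 483 matched genes were found by symbol (476) or Entrez ID (7), and 2 were not matched. Regions were joined to peaks by an overlap of at least 1 base. Motifs were searched in RefSeq promoter sequences of GRCm38.p6. Named genes are those of the 10 highest peaks, fixed genes of growth and atrophy, the 8 largest called changes in each direction and comparison, 20 genes called alike in 3 comparisons and up to 4 genes per list. Other genes were named after their values were seen. Animals are the replicates, and 0 columns were left unmapped. Footprint and mRNA libraries of RiboTag share animal numbers, so each animal gives both. The scripts were tested on simulated data. Alternatives included DESeq2 1.42.0, other normalizations and filters, other numbers of peaks, and leaving out each library. edgeR on recovered tags, and leaving out genes near the cap on tags per position, were chosen after seeing the data.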

Additional observations from a re-analysis of the deposited data

Results flagged for a closer look

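Among 338 groups of 4 or 5 samples of the named genes, 22 (6.51%) had 1 sample far from the others by Dixon's test, where chance gives about 1 in 20. The flagged values are given without explanation.

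In RNA, Per1 of knockout P1896 was at a log2 level of 8.46 (other knockouts 9.35 to 9.64), Socs2 of knockout P1900 at 9.12 (8.85 to 8.92) and Ubb of knockout P1896 at 8.72 (8.77 to 8.78). Oil mouse P1910 was highest for Ddit4, at 7.82 (7.31 to 7.37), and for Prickle1, at 7.90 (7.80 to 7.81).

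In RiboTag mRNA, Chrna9 of knockout RNA_11688 was at 54.6 CPM (other knockouts 23.6 to 25.8) and Adamtsl4 of the same mouse at 57.3 CPM (70.3 to 71.9). Control RNA_11673 was lowest for Abtb2, at 38.8 CPM (43.5 to 44.4), and Jade2, at 22.1 CPM (42.9 to 47.1). Control RNA_11734 was highest for Homer1, at 152.9 CPM (102.7 to 106.4), and Uck2, at 22.2 CPM (16.7 to 17.1). Tnc of control RNA_11735 was at 86.9 CPM (73.5 to 75.5) and Fos of control RNA_11745 at 8.69 CPM (16.3 to 16.8).

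In footprints, knockout RPF_11688 was highest for Chrna9, at 123.6 CPM (56.3 to 63.8), and Nnat, at 4.58 CPM (1.15 to 1.67). Tnc of knockout RPF_11718 was at 233.3 CPM (106.6 to 120.3) and Usp46 of knockout RPF_11721 at 65.8 CPM (72.4 to 73.5). Chrna9 of control RPF_11745 was at 8.14 CPM (3.30 to 4.10).

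In nascent RNA, FX1 mouse 3 stood apart for Arid3b, at a log2 level of 7.86 (6.69 to 7.03), Snx14, at 10.22 (9.43 to 9.65), and Socs2, at 5.69 (7.05 to 7.35). Ctr9 of DMSO mouse 5 was at 8.94 (9.07 to 9.11).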

How the results depend on the processing

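Counts of called members moved with the number of peaks taken, which sets the number of members. With 250, 1000 and, for genes, only peaks within 10 kb of the start, they were 85, 259 and 77 in RNA against Cre-negative mice, 102, 331 and 94 against oil, 43, 119 and 41 in RiboTag mRNA, 76, 281 and 81 in footprints, 24, 74 and 19 in translation efficiency and 45, 228 and 49 in nascent RNA. The windows gave 118 and 392 with 250 and 1000 peaks. With 1000 peaks the acute count was 15 and the chronic one 24. The chronic count of 15 was 30 with a pseudocount of 5, 31 after quantile normalization and 36 with edgeR on recovered tags; the cause was not tested. All other settings except leaving out a library and the replicate block in nascent RNA kept counts within 1.5 times. RNA against Cre-negative mice gave 105 raised and 34 lowered after quantile normalization, and nascent RNA 55 and 59.

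Leaving out 1 library gave counts of 126 to 138 in RNA against Cre-negative mice, 163 to 177 against oil, 52 to 76 in RiboTag mRNA, 115 to 158 in footprints, 6 to 51 in translation efficiency, 82 to 146 in nascent RNA, 3 to 10 acute, 0 to 39 chronic and 172 to 227 windows. Nascent samples with the same number did not deviate together (correlations -0.43 to 0.18), and the replicate block there gave 70 called members, without the calls of Arid5a, Sesn1, Wnt4 and Zbtb16. Blocking by animal in translation efficiency gave 55 and lost Epb41l4aos, Ncoa1 and Wdr72. Smyd1 in RNA against Cre-negative mice changed sign after quantile normalization, to 0.052. Few tags in controls, as at Usp46, limit the precision of the acute and chronic folds.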
